A study of Mus musculus with 10 samples.

Results

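The GFI1 factors and the LSD1-CoREST corepressor complex were examined as 7 genes out of 55487 counted. They were taken by symbol from the matrix of stage values and by Ensembl identifier from the count tables. The members were the DNA-binding repressors Gfi1 and Gfi1b, the histone demethylase gene Kdm1a, which encodes LSD1, the scaffold genes Rcor1 and Rcor2, which encode CoREST proteins, and the deacetylase genes Hdac1 and Hdac2. The first 2 are called the GFI1 factors here and the other 5 the corepressor subunits. All 7 passed the filter on low counts.

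Nuclear-enriched RNA was sequenced from the mouse ES cell line HM-1 and from blood precursors made from it in serum, with 2 libraries at each of 5 stages. ES were undifferentiated cells kept in LIF, and HB (haemangioblast) were FLK1+ cells taken with magnetic beads from embryoid bodies after 3 days. After a further blast culture of HB, the cells were sorted into HE1 (KIT+ TIE2+ CD41-) and HE2 (KIT+ TIE2+ CD41+), the 2 stages of haemogenic endothelium, and HP (KIT+ TIE2- CD41+), the haematopoietic progenitors. All stages shared this cell line, and the labels name no mutation or drug in any of them. The study calls the replicates of these stages biologically independent, while the labels name no separate cultures, and the p-values measure the spread between these libraries. In such bulk samples, fewer cells of a type and less RNA per cell cannot be told apart.

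GFI1 and GFI1B are zinc finger proteins that bind DNA and repress transcription. Their amino-terminal SNAG domain docks into LSD1, which sits on a CoREST scaffold together with HDAC1 or HDAC2, and the assembled complex strips methyl and acetyl groups of active chromatin from histone tails. In the embryo both factors are known for silencing endothelial genes while blood cells emerge from haemogenic endothelium, and GFI1B is also needed in red cells and megakaryocytes.

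In the mm10 build used by the count tables, Gfi1 (ENSMUSG00000029275) lies at chr5:107716657-107726036 on the minus strand and Gfi1b (ENSMUSG00000026815) at chr2:28609450-28621982 on the minus strand. Kdm1a (ENSMUSG00000036940) lies at chr4:136550540-136602723 on the minus strand. The scaffold genes lie at chr12:111039351-111115901 (Rcor1, ENSMUSG00000037896, plus strand) and chr19:7267325-7275225 (Rcor2, ENSMUSG00000024968, plus strand). The deacetylase genes lie at chr4:129516104-129542713 (Hdac1, ENSMUSG00000028800, minus strand) and chr10:36974544-37001889 (Hdac2, ENSMUSG00000019777, plus strand). Counts are summed over annotated exons, which span 1830 bases in Gfi1b, 3157 in Rcor2, 3187 in Gfi1, 3445 in Hdac1, 4474 in Hdac2, 5179 in Kdm1a and 5684 in Rcor1.

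RefSeq promoter windows of the GRCm38.p6 build were found for 6 of the 7 members. The 250 bases upstream of the RefSeq start site are shown for both GFI1 factors, which changed most, and for Rcor2, the subunit gene that changed most. Capitals mark the letters AATC on either strand (GATT when on the opposite strand), the core that GFI1 and GFI1B recognise. The sequences run 5′ to 3′ on the strand of the gene and cover chr5:107725806-107726055 for Gfi1, chr2:28621983-28622232 for Gfi1b and chr19:7267144-7267393 for Rcor2. The RefSeq starts of Gfi1 and Rcor2 lie inside the gene positions given above, so their windows overlap the annotated genes in part, and the stretch just after the Rcor2 start was found whole in no GENCODE transcript of the gene.
Gfi1: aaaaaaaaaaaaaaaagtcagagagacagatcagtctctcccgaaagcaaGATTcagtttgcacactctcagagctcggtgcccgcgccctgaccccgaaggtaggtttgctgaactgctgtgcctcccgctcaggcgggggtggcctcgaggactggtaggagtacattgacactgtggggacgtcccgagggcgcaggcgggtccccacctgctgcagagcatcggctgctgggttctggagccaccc
Gfi1b: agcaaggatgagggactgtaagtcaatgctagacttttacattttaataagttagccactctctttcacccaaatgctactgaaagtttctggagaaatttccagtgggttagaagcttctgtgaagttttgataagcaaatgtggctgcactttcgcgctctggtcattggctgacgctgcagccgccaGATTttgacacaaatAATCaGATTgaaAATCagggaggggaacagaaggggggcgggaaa
Rcor2: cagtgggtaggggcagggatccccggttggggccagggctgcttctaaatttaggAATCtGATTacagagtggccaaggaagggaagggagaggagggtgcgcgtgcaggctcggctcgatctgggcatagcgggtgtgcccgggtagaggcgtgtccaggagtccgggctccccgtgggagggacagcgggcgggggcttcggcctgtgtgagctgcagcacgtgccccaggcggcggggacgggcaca
The Gfi1b window held 4 matches, all between 60 and 30 bases before the start site. At least 4 matches occurred in 7.04% of the 32851 windows of the same length, and 69.0% held at least 1. Of the 4, 2 were followed by A and so also matched AATCA, the longer form, as did at least 2 sites in 9.14% of all windows. The Rcor2 window held 2 matches and the Gfi1 window held 1, while a second start site of Gfi1 had none. The Kdm1a window had 1 match and those of Rcor1 and Hdac2 had none. The GATA letters GATAA, on either strand, occurred once in the Gfi1b window and in 22.6% of all windows, and the RUNX letters TGTGGT occurred once in the Hdac2 window and in 14.0% of all windows. These matches describe letters, not bound sites.

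The libraries held between 24920434 and 58782055 counts, and 22596 genes were tested. At this depth 3 counts, used as a floor for counting error only, correspond to 0.0532 to 0.126 CPM, the counts scaled to library size with TMM factors. The ES marker list was highest in ES, where Pou5f1 reached 549 and 520 CPM, and the endothelial list was highest in HE1 and HE2. HE1 libraries held 227 and 127 CPM of Itga2b, the gene of the CD41 antigen that the sort had excluded. Some libraries stood apart. HE1 replicate 2 held more RNA of the 5 ES markers (79.3 summed CPM against 6.81 in replicate 1), more of the 3 cardiac markers (80.8 against 20.9) and less of the 8 endothelial markers (2283 against 3853). The 5 smooth muscle and stroma markers, all above the floor in every library, summed to 139 and 154 CPM in ES and 80.1 and 76.1 in HB, then to 969.7 and 1761 (HE1), 1124 and 792 (HE2) and 1452 and 729 (HP). They were highest in HE1 replicate 2, and were led by Col1a1 and Acta2 in that library. Over log2 CPM of the 16281 genes with a mean of at least 1 CPM, HE2 replicate 2 correlated more with HP replicate 1 (r = 0.986) than with HE2 replicate 1 (r = 0.980), and HE1 replicate 1 correlated more with HE2 replicate 1 (r = 0.971) than with HE1 replicate 2 (r = 0.965). Where the call of a single named gene depended on any 1 library, this is given with the gene. Of the 16 calls made for members over 6 comparisons, 12 were kept whichever library was left out and 4 were lost at least once.

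Gfi1 was nearly silent in ES and was present from HB onwards, with its highest mean in HE2. The ES libraries held 0.0710 CPM, from 4 counts, and 0. The HB libraries held 3.27 and 3.24, those of HE1 11.9 and 8.79, those of HE2 14.1 and 12.6 and those of HP 9.72 and 8.68 CPM. No ES library reached the HB range, no HB library reached the HE1 range, and the HP values overlapped those of HE1. From ES to HB, summed over libraries, 4 counts became 214, a 74.2-fold ratio with an exact 95% interval of 28.6 to 275 that covers counting error only (edgeR adjusted p = 1.32e-05). All 4 of the ES counts were in replicate 1, against which the ratio was 45.9, while replicate 2 held none and gave an at least 37.8-fold higher level in HB against a floor of 3 counts. The call was kept without either ES library. From HB to HE1, Gfi1 rose by a log2 fold change of 1.66 (SE 0.34, edgeR adjusted p = 0.00448). Endothelial, stromal and erythroid marker RNA was higher in HE1 too. The erythroid markers summed to 23.4 and 22.3 CPM in HB and to 559 and 274.8 in HE1. The part of this marker RNA in the rise of Gfi1 was not tested. The changes from HE1 to HE2 (log2 0.37, edgeR adjusted p = 0.417) and from HE2 to HP (log2 -0.53, edgeR adjusted p = 0.834) did not pass, although the libraries did not overlap in either.

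Gfi1b was low up to HE1 and high in both CD41+ stages, HE2 and HP. ES libraries held 0.337 and 0.287 CPM, HB libraries 4.30 and 3.44, and HE1 libraries 6.06 and 3.20. The CD41+ libraries held 34.4 and 65.6 CPM (HE2) and 82.1 and 59.4 CPM (HP). Every CD41+ library exceeded all earlier ones, HB and HE1 overlapped, and so did HE2 and HP. Gfi1b rose 12.1-fold from ES to HB (log2 3.60, SE 0.46, edgeR adjusted p = 0.000165) and 10.9-fold from HE1 to HE2 (log2 3.44, SE 0.37, edgeR adjusted p = 0.000739). Between HB and HE1 the log2 difference was 0.25 (SE 0.36, edgeR adjusted p = 0.622) and turned to -0.31 without HE1 replicate 1. Without HE2 replicate 2, which lay near HP, the rise from HE1 to HE2 was still called, and over all fits without 1 library it lay between 2.92 and 3.99 on the log2 scale with adjusted p of at most 0.0116.

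RNA of other blood lineages was higher in the same libraries as Gfi1b. The 8 erythroid markers summed to 274.8 to 559 CPM in HE1, 1728 to 2260 in HE2 and 2498 to 4848 in HP, led by the embryonic globin gene Hbb-bh1. The 7 myeloid markers summed to 3.27 to 7.87 CPM in HE1, 71.8 to 161 in HE2 and 139 to 276 in HP, with Mpo the highest of the 7 in every one of these libraries and Elane, a granulocyte protease gene, at or below 0.297 CPM in every library. The 6 megakaryocyte markers summed to 129 to 232 CPM in HE1 and 406 to 551 in HE2 and HP, most of it Itga2b, while Gp9 stayed at or below 2.53 CPM. The part of these lineages in the Gfi1b values was not tested.

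**Figure D1:**
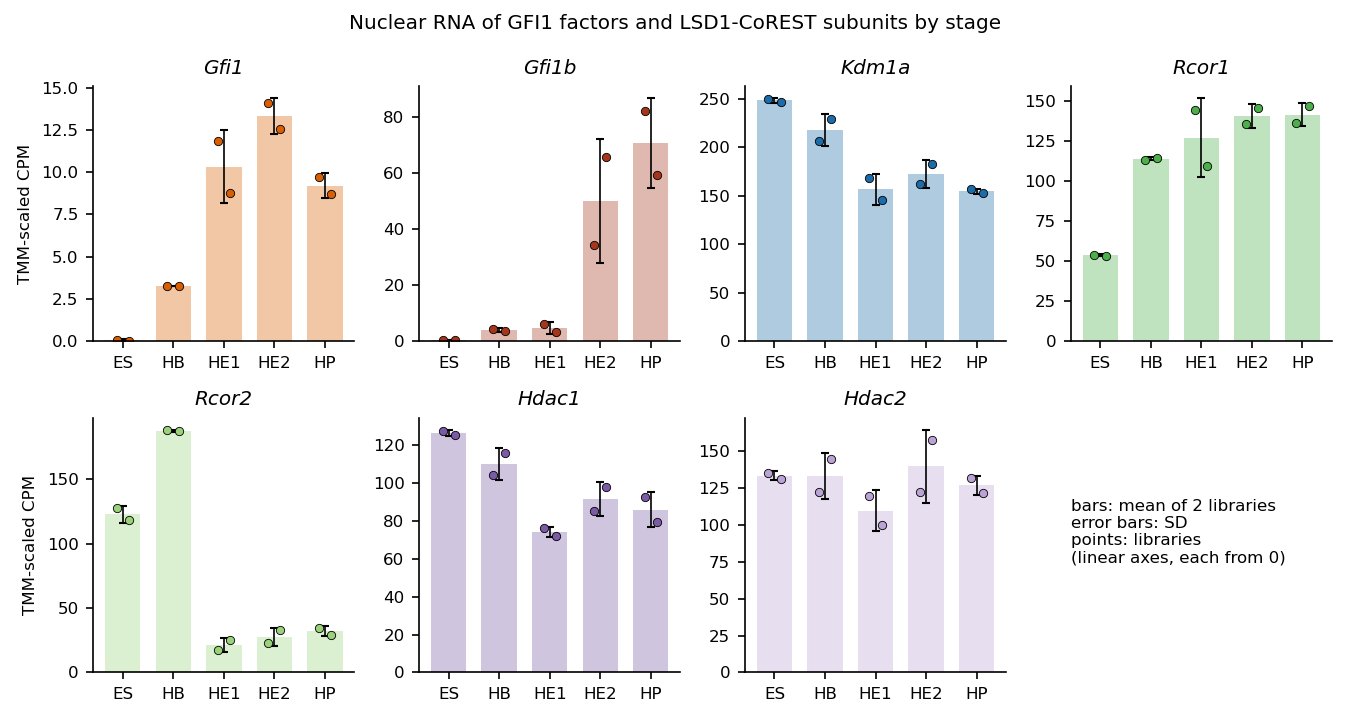
TMM-scaled CPM of the 7 members in each of the 10 libraries, by stage, on linear axes from 0. Bars are means of 2 libraries, error bars are SD and points are libraries. Gfi1b reaches 34.4 to 82.1 CPM in HE2 and HP against at most 6.06 before, and Rcor2 falls from at least 118 in ES and HB to at most 34.7 afterwards.

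Among the corepressor subunits, Kdm1a, the catalytic demethylase, varied little. Its libraries held 250.3 and 246.9 CPM at the ES stage, 207 and 229.9 at HB, 168 and 145 at HE1, 162 and 183 at HE2, and 157 and 153 at HP. Every ES and HB library lay above every later one, and the means differed by at most 1.61-fold. Kdm1a fell from HB to HE1 by 0.48 on the log2 scale (SE 0.14, edgeR adjusted p = 0.0262), a call that was lost without HB replicate 2 (adjusted p = 0.146), without HE1 replicate 2 (adjusted p = 0.100) and when only the 4 libraries of these stages were fitted (adjusted p = 0.0664). From ES to HP it fell by 0.68 (SE 0.14, edgeR adjusted p = 0.00220), and this call was kept whichever library was left out.

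From ES to HP, the scaffold genes Rcor1 and Rcor2 moved in opposite directions. For Rcor1 the ES libraries held 53.9 and 53.2 CPM and the HB libraries 113 and 114, followed by 144 and 109 (HE1), 135 and 146 (HE2) and 136 and 146 (HP). It rose 2.12-fold from ES to HB (log2 1.09, SE 0.15, edgeR adjusted p = 0.000300) and no later successive change passed. Both ES libraries lay below all others, HB fell within the spread of HE1, and HE2 and HP overlapped. An unnamed gene model on the same strand, Gm48632, shares 53 exon bases with Rcor1 and held at most 295 counts in a library, against at least 1853 for Rcor1.

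For Rcor2 the values were 127 and 118 CPM (ES) and 188 and 187 (HB), then 17.7 and 25.3 (HE1), 22.5 and 32.6 (HE2) and 34.7 and 29.2 (HP). All libraries of ES and HB lay above all of the later stages. Rcor2 fell 8.71-fold from HB to HE1 (log2 -3.12, SE 0.22, edgeR adjusted p = 1.27e-05), and the log2 change lay between -3.40 and -2.93 whichever library was left out. The HE1 replicate with the higher Rcor2 value was replicate 2, the library with more ES marker RNA, and the part of this RNA in the value was not tested. The falls of Rcor2, Hdac1 and Kdm1a from HB to HE1 came with higher marker RNA of other kinds in HE1. These were the smooth muscle and stroma, erythroid and endothelial markers (the last at 339.7 and 291 CPM in HB), whose part in the falls was not tested. The rise from ES to HB (log2 0.61, SE 0.21, edgeR adjusted p = 0.0357) was lost without either ES library and without either HB library, with adjusted p up to 0.180. Between HE1 and HP, Rcor2 was 1.48-fold higher in HP without passing (log2 0.57, SE 0.21, edgeR adjusted p = 0.0727), but it passed without HE1 replicate 2 (log2 0.85, adjusted p = 0.0370), without HE2 replicate 1 (adjusted p = 0.0352), without HE2 replicate 2 (adjusted p = 0.0354) and with no filter on low counts (adjusted p = 0.0170).

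The means of the deacetylase genes stayed within 1.71-fold (Hdac1) and 1.27-fold (Hdac2). Hdac1 held 128 and 125 CPM (ES), 104 and 116 (HB), 76.0 and 72.1 (HE1), 85.1 and 97.7 (HE2) and 92.3 and 79.6 (HP). Both HE1 libraries lay below all others, both ES libraries lay above all others, and HE2 and HP overlapped. Hdac1 fell from HB to HE1 by 0.57 on the log2 scale (SE 0.14, edgeR adjusted p = 0.0119), a call that was lost without HB replicate 2 (adjusted p = 0.0840). Hdac1 shares sequence with other gene models of the annotation. Of the 50-base words of Gm10093, 80.4% also occur in Hdac1 transcripts, as do 12.2% of those of AC125456.1 and 11.0% of those of Gm4864. Gm10093 took 28.4% to 36.1% as many counts as Hdac1 in every library, so the split of reads between them is uncertain.

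Hdac2 ranged from 99.9 to 157 CPM over all libraries, with means of 133 ± 3.06 (ES), 133 ± 15.7 (HB), 109.6 ± 13.8 (HE1), 139.6 ± 24.9 (HE2) and 127 ± 6.74 CPM (HP, SD, n = 2). The HE1 libraries (119 and 99.9) lay below all others, whose stages overlapped, and no comparison passed. In a test of any difference among the 5 stages, Hdac2 was the member that did not pass (edgeR adjusted p = 0.367). The other 6 did, with adjusted p of 0.00426 or less, beside 66.7% of all genes tested.

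From ES to HB, 4 of 7 rose (Gfi1, Gfi1b, Rcor1 and Rcor2) and none fell, beside 40.4% of all genes called, 17.8% higher and 22.6% lower, a split that depends on the scaling of the libraries. From HB to HE1, Gfi1 rose and Rcor2, Hdac1 and Kdm1a fell, 4 of 7 beside 32.3% of all genes, 17.5% higher and 14.8% lower. From HE1 to HE2, Gfi1b alone passed, beside 13.2% of all genes (6.12% higher), and it was also the 1 member called from HE1 to HP, beside 24.9% of all genes (11% higher). From HE2 to HP, edgeR called 0 members and 0 genes, while 1783 of all genes (7.89%), none of them members, were under an unadjusted p of 0.05. By limma-voom 66 genes (0.292%) were called in that step and by DESeq2 465 (2.06%), again with no member among them. With a change of at least 2-fold required as well, 3, 2, 1 and 0 members passed in the 4 successive steps, beside 28.8%, 20.9%, 8.65% and 0% of all genes. Libraries of the 2 stages did not overlap for 6, 5, 4 and 2 members in these steps, beside 78.7%, 65.5%, 59.2% and 28.8% of all genes.

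Gfi1b varied over a wider range than any subunit. The median absolute log2 change of the 5 subunits was 0.20 from ES to HB, 0.48 from HB to HE1, 0.30 from HE1 to HE2 and 0.14 from HE2 to HP. Over all genes tested, which were not matched to the subunits for level, it was 0.71, 0.66, 0.57 and 0.22 for the same steps. Stage means of Gfi1b spanned a 227-fold range, against 8.73-fold for Rcor2, 2.64-fold for Rcor1, 1.71-fold for Hdac1, 1.61-fold for Kdm1a and 1.27-fold for Hdac2. No such range is given for Gfi1, whose ES level rests on 4 counts.

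**Figure D2:**
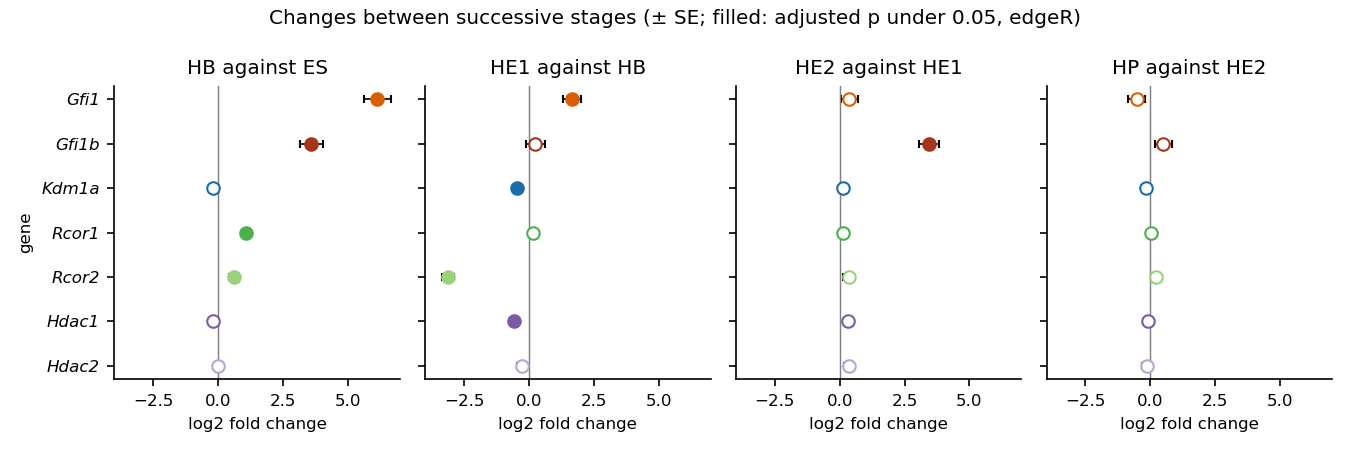
Log2 fold change of each member between successive stages, with an SE derived from the F statistic of the edgeR fit over 10 libraries. Filled points passed an adjusted p of 0.05. Gfi1 and Gfi1b rise from ES to HB, Rcor2 falls by 3.12 from HB to HE1, and Gfi1b is the filled point from HE1 to HE2.

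From end to end, HP against ES, 6 of 7 members changed, beside 51.6% of all genes, 24.1% higher and 27.5% lower. Gfi1b was higher by 7.79 on the log2 scale (SE 0.48, edgeR adjusted p = 8.66e-07) and Rcor1 by 1.40 (SE 0.15, edgeR adjusted p = 3.53e-05). Gfi1 was higher too (edgeR adjusted p = 1.64e-06), and its summed counts gave a 212-fold ratio with an exact interval of 82.3 to 779. Against ES replicate 1 alone this ratio was 131, and against replicate 2 HP was at least 108-fold higher by the same floor. Rcor2 was lower by 1.94 (edgeR adjusted p = 3.64e-05), Kdm1a by 0.68 and Hdac1 by 0.56, the last call being lost without ES replicate 1 (adjusted p = 0.0608) or HP replicate 2 (adjusted p = 0.0745). Libraries did not overlap in 6 of 7 members, beside 80.1% of all genes.

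To compare levels between genes, CPM were divided by exon length in kb. This length covers all annotated exons, whichever transcripts a stage makes. The values, and the ratios and sums below, are levels of nuclear-enriched RNA, not of protein. In ES the order was Kdm1a (48.0 ± 0.463, SD, n = 2), Rcor2 (38.9 ± 2.11), Hdac1 (36.7 ± 0.503), Hdac2 (29.8 ± 0.685), Rcor1 (9.42 ± 0.0907), Gfi1b (0.170 ± 0.0194) and Gfi1 (0.0111 ± 0.0157), and no neighbours in this order overlapped. In HB, Rcor2 led with 59.5 ± 0.240 CPM per kb, ahead of Kdm1a with 42.1 ± 3.19, and Hdac1 and Hdac2 overlapped. In HE1, Kdm1a led again with 30.3 ± 3.12, Hdac2, Rcor1 and Hdac1 overlapped in turn with means between 21.5 and 24.5, and Gfi1 (3.24 ± 0.682) and Gfi1b (2.53 ± 1.10) overlapped at the bottom. In HE2 the 5 highest genes overlapped with their neighbours, Gfi1b among them at 27.3 ± 12.1 CPM per kb. In HP, Gfi1b was the first of the 7 with 38.7 ± 8.78, and its libraries (44.9 and 32.5) lay above those of Kdm1a (30.2 and 29.5). Gfi1 was the last there with 2.89 ± 0.231. Per kb, Gfi1b exceeded 14.7% of the genes tested in ES and 93.6% in HP, while Kdm1a exceeded 94.3% and 91.3%.

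Ratios between members were taken within each library on the log2 scale and also from the stage means of TMM-scaled CPM. From these means, the Gfi1b to Gfi1 ratio per kb was 2.07 (HB), 0.781 (HE1), 6.54 (HE2) and 13.4 (HP). On the log2 scale, with a prior count of 2 that weighs on ratios of few counts, its libraries gave 1.19 and 0.88 (HB), -0.16 and -0.64 (HE1), 2.09 and 3.18 (HE2) and 3.87 and 3.57 (HP). HE1 was the stage with more Gfi1 than Gfi1b per kb in both libraries. In ES the ratio rests on 4 counts of Gfi1 and 29 of Gfi1b, and with a smaller prior count of 0.5 ES became the stage with the highest ratio. Over 945 arrangements of the libraries into 5 pairs, a one-sided exact permutation test of the F statistic gave p = 0.00423, adjusted to 0.00882 over 5 ratios. Without the ES libraries the adjusted exact p was 0.0238.

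The Rcor1 to Rcor2 ratio per kb turned over between HB and HE1. It was 0.242 at the ES stage and 0.336 at HB, then 3.27 (HE1), 2.83 (HE2) and 2.45 (HP). All 4 log2 ratios of ES and HB were between -2.09 and -1.56, and all 6 later ones were between 1.12 and 2.17. The ratio differed among stages (exact permutation p = 0.0190, adjusted p = 0.0190), but without the ES libraries, where 105 arrangements allow no p under 0.00952, the adjusted exact p was 0.114. The summed level of both scaffolds was 49.9 and 46.7 CPM per kb (ES), 79.5 and 79.4 (HB), 31.0 and 27.3 (HE1) and 30.9 and 35.9 (HE2), and both HP libraries lay within the HE2 values. Set against the mean of Kdm1a, this sum was 1.01 times its level at the ES stage, 1.89 times at HB and between 0.962 and 1.17 times later. The sums were chosen after the values were seen and are given without a test.

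**Figure D3:**
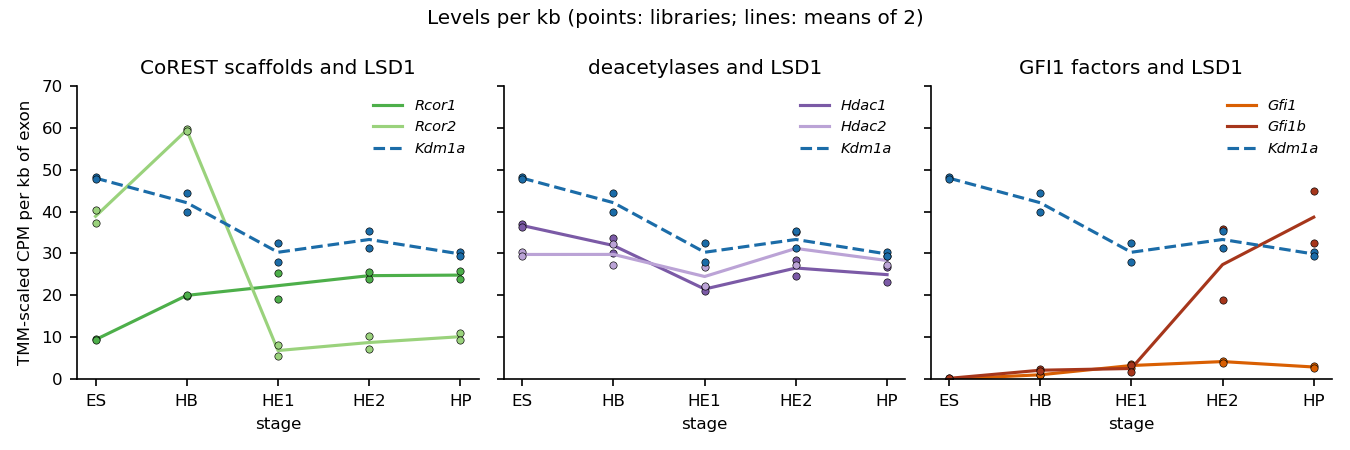
TMM-scaled CPM per kb of exon by stage for the CoREST scaffold genes, the deacetylase genes and the GFI1 factors, each beside Kdm1a (dashed). Points are libraries and lines join means of 2. Rcor2 leads in HB at 59.5 and Rcor1 exceeds it from HE1 onwards, while the mean of Gfi1b lies below that of Kdm1a up to HE2 (27.3 against 33.3 there) and above it in HP.

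The Hdac1 to Hdac2 ratio per kb went from 1.23 (ES) and 1.07 (HB) to 0.878 (HE1), 0.850 (HE2) and 0.881 (HP). Its log2 values were all above 0 in ES and HB and all below 0 in the later stages, and it differed among stages (exact permutation p = 0.0127, adjusted p = 0.0159). Without the ES libraries the adjusted exact p was 0.114. Hdac1 counts are subject to the shared sequence named above.

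Relative to Kdm1a, the demethylase their SNAG domain docks into, both GFI1 factors were higher in every later stage than in ES. The Gfi1b to Kdm1a ratio per kb was 0.00355 (ES), 0.0502 (HB), 0.0835 (HE1), 0.820 (HE2) and 1.29 (HP). Its log2 values were -0.73 and 0.02 in HE2 and 0.57 and 0.14 in HP, against at most -3.28 before. It differed among stages (exact permutation p = 0.00106, the smallest that 945 arrangements allow, adjusted p = 0.00529) and also without the ES libraries (adjusted exact p = 0.0238). The Gfi1 to Kdm1a ratio was 0.0243 (HB), 0.107 (HE1), 0.125 (HE2) and 0.0966 (HP). It differed among stages (exact permutation p = 0.00529, adjusted p = 0.00882), but not past the threshold without ES (adjusted exact p = 0.0794). The sum of both GFI1 factors went from 0.00378 times the Kdm1a level at the ES stage through 0.0744 (HB), 0.190 (HE1) and 0.945 (HE2) to 1.39 (HP), again chosen after the values were seen.

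**Figure D4:**
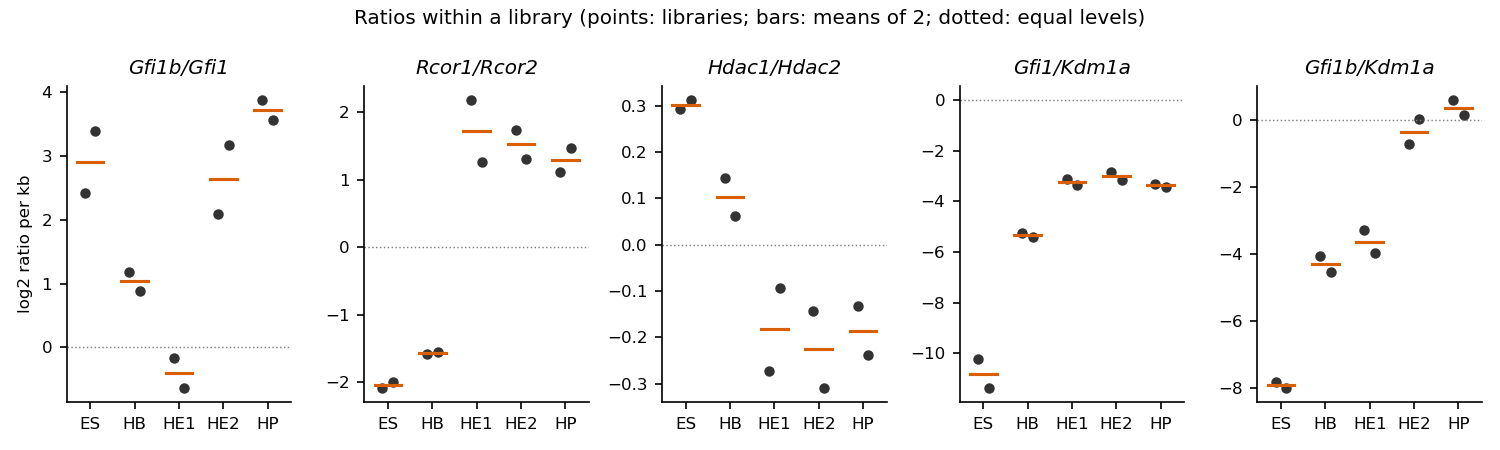
Log2 ratio per kb of 5 pairs of members within each library, with a prior count of 2. Points are libraries, bars are means of 2 and the dotted line marks equal levels. The Rcor1/Rcor2 points cross the line between HB and HE1, and Gfi1b/Kdm1a climbs from about -7.90 in ES to 0.35 in HP.

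Other genes of these complexes were followed through 6 lists with 56 genes, of which 55 were tested (Insm2 was not). The lists held other LSD1-CoREST partners, other transcription factors with a SNAG domain, and the NuRD, SIN3, MiDAC and NCoR complexes, which share HDAC1 and HDAC2 or other class I deacetylases. From ES to HB 24 of the 55 changed (9 rose and 15 fell, beside 40.4% of all genes), from HB to HE1 11 (5 rose and 6 fell, beside 32.3%), from HE1 to HE2 7 (2 rose and 5 fell, beside 13.2%) and from HE2 to HP 0. Their median absolute log2 changes were 0.41, 0.34, 0.37 and 0.09, against 0.71, 0.66, 0.57 and 0.22 over all genes, again not matched for level. The count from ES to HB was 15 without ES replicate 2 or HB replicate 2, that from HB to HE1 was 18 without HE1 replicate 1, and that from HE1 to HE2 lay between 2 (without HE1 replicate 2 or HE2 replicate 2) and 19 (without HE1 replicate 1). It was 4 without HB replicate 1 or HB replicate 2 and 11 without HE2 replicate 1. Of the 34 changes of single genes chosen by size for naming, 20 were called whichever library was left out.

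Of the 12 LSD1-CoREST partners, 10 were called from ES to HB (4 rose and 6 fell), beside 40.4% of all genes. Rest, a zinc finger repressor that also recruits CoREST, went from 745 ± 6.85 to 212 ± 2.26 CPM (log2 -1.81, SE 0.18, edgeR adjusted p = 3.23e-05). Ctbp2, a corepressor that associates with LSD1, went from 269.7 ± 0.538 to 78.0 ± 2.12 CPM (log2 -1.79, edgeR adjusted p = 4.63e-06). Rcor3, the third CoREST gene, rose from 8.59 and 7.86 to 21.2 and 18.8 CPM (log2 1.28, edgeR adjusted p = 0.000628). From HB to HE1, 2 of 12 passed, beside 32.3% of all genes, and from HE1 to HP 5 of 12, beside 24.9%. From HB to HE1, Zfp217 fell from 168.5 ± 12.6 to 92.3 ± 24.5 CPM (log2 -0.87, edgeR adjusted p = 0.00437), and Hmg20b rose (log2 0.56, edgeR adjusted p = 0.0168), a call kept in 5 of 10 fits without 1 library.

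From HE1 to HE2, when Gfi1b rose, 3 of 12 LSD1-CoREST partners passed, beside 13.2% of all genes. Erythroid and myeloid marker RNA was higher in HE2 than in HE1, and its part in the partner changes of this step, in any list, was not tested. Gse1, a coiled-coil subunit purified with LSD1 complexes, rose from 201 and 169 CPM in HE1 to 501 and 715 in HE2, and stood at 830 and 714 in HP. The libraries of HE1 and HE2 did not overlap, and the change was 1.72 on the log2 scale (SE 0.19, edgeR adjusted p = 0.000934). It was called whichever library was left out, with adjusted p up to 0.0123. Zmym3 rose (log2 0.93, edgeR adjusted p = 0.0212) and Ctbp2 fell again (log2 -0.54, edgeR adjusted p = 0.0265), but these calls were kept in 8 and 4 of 10 fits, with adjusted p up to 0.177 and 0.216. The libraries left out when the Zmym3 call was lost were HE1 replicate 2 and HE2 replicate 2.

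Among the 8 SNAG factors tested, Snai1, a repressor of epithelial genes, peaked in HB. Its libraries held 2.43 and 2.67 CPM (ES), 57.0 and 58.6 (HB), 6.06 and 6.94 (HE1), 3.41 and 2.63 (HE2) and 2.37 and 1.75 (HP). It rose by 4.50 from ES to HB (SE 0.24, edgeR adjusted p = 8.33e-07) and fell by 3.15 from HB to HE1 (SE 0.22, edgeR adjusted p = 1.27e-05), both on the log2 scale and both kept whichever library was left out. Its further fall to HE2 (log2 -1.10, edgeR adjusted p = 0.0157) was lost without HE1 replicate 2 or HE2 replicate 2, with adjusted p up to 0.129. Snai2 rose from 0.430 and 0.563 CPM in HB to 2.86 and 4.59 in HE1 (log2 2.90, edgeR adjusted p = 0.00260). The part of the endothelial, stromal and erythroid marker RNA, higher in HE1 than in HB, was not tested in this or any other partner change of that step. Ovol2 and Snai3 fell from ES to HB (edgeR adjusted p = 0.00139 and 0.000528), with 7 and 2 counts of Ovol2 and 14 and 2 of Snai3 left in the HB libraries. Ovol1, called from HE1 to HE2 (edgeR adjusted p = 0.0350), had 3 and 46 counts in HE1, nearly all in replicate 2, and 1 in each HE2 library. No factor of this list exceeded 6.94 CPM in HE1, HE2 or HP.

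In NuRD, a complex that joins deacetylation to nucleosome remodelling, the remodeller gene Chd3 rose from 27.6 to 71.7 CPM from ES to HB (log2 1.38, edgeR adjusted p = 0.000791) and fell from 106 to 42.8 CPM from HE1 to HE2 (log2 -1.31, edgeR adjusted p = 0.00871), Mta3 fell by 0.91 from ES to HB, and the methyl-CpG binder gene Mbd2 rose from 18.5 to 47.4 CPM from HB to HE1 (log2 1.35, edgeR adjusted p = 0.000155). Chd5 fell from ES to HB (log2 -2.77, edgeR adjusted p = 0.00651), a call that was lost without HB replicate 2 (adjusted p = 0.0598). In the SIN3 complex, the scaffold genes parted from HB to HE1. Sin3b rose from 149.5 to 269.3 CPM (log2 0.85, edgeR adjusted p = 0.00327), Sin3a fell from 176 to 104 CPM (log2 -0.76, edgeR adjusted p = 0.00647) and the subunit gene Sap30 fell from 34.8 to 16.5 CPM (log2 -1.08, edgeR adjusted p = 0.00112). Dnttip1 of MiDAC rose by 0.96 from ES to HB (edgeR adjusted p = 0.00150). The calls for Mta1, Sap30, Arid4a, Ing2 and Ncor1 from ES to HB, Mta1 and Insm1 from HB to HE1, and Trerf1 and Ovol1 from HE1 to HE2 were each lost in 4 to 7 of the 10 fits without 1 library, with adjusted p up to 0.113 to 0.365.

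**Figure D5:**
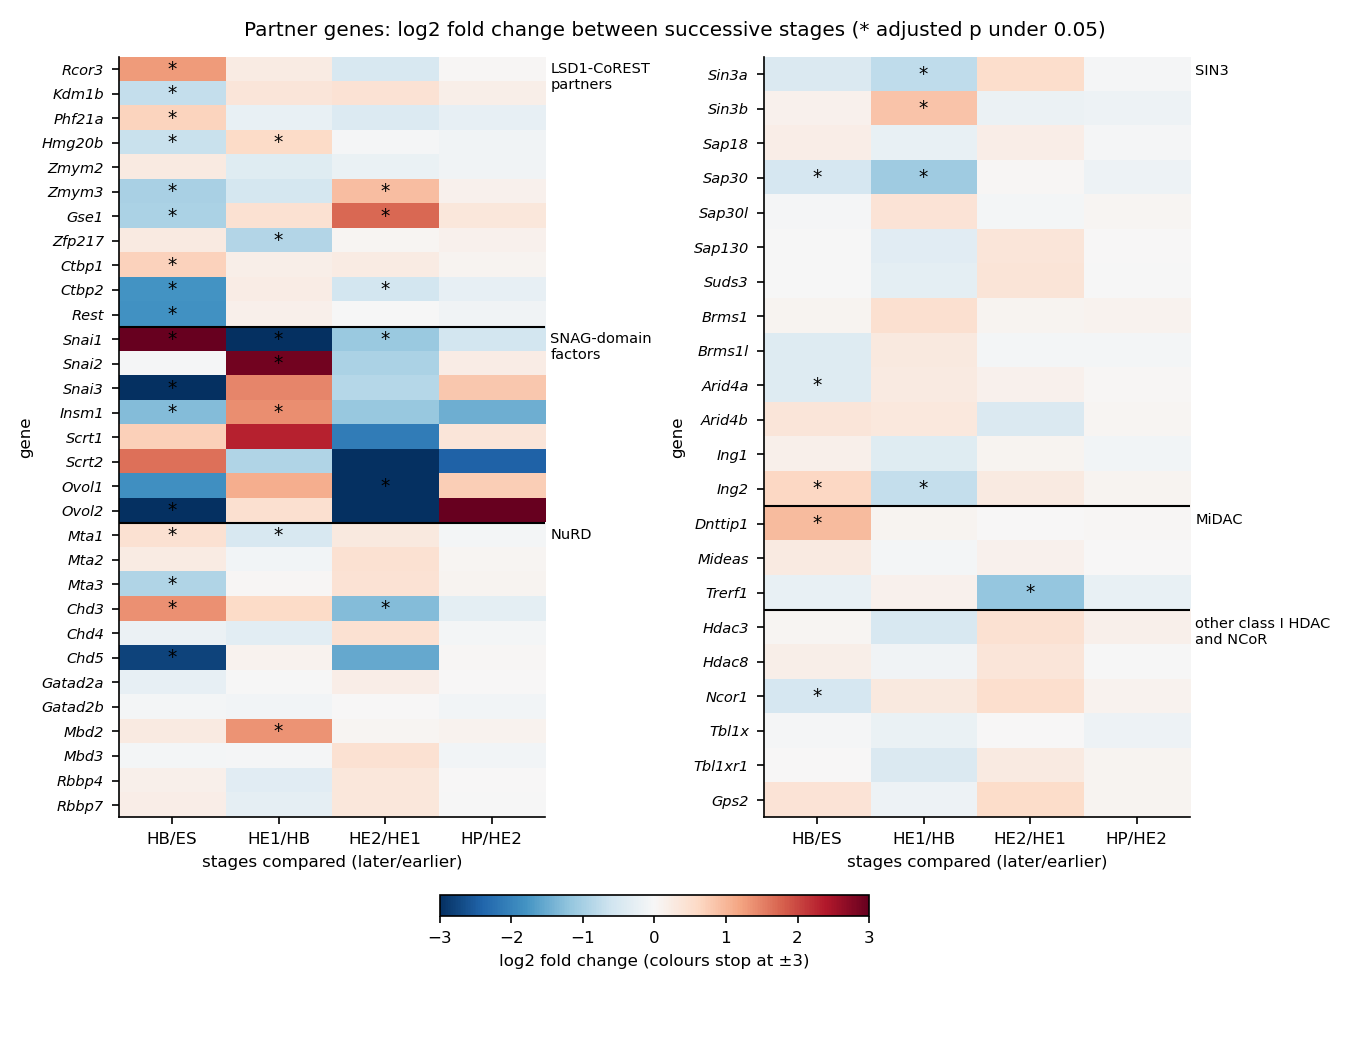
Log2 fold change of 53 of the 55 tested genes of the 6 partner lists between successive stages, with colours that stop at ±3. Stars mark an adjusted p under 0.05 by edgeR. Of the genes shown, 22 carry a star from ES to HB, 11 from HB to HE1, 7 from HE1 to HE2 and 0 from HE2 to HP.

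The genes with the most similar course were found by Pearson correlation of log2 CPM over the 10 libraries, among 16280 genes with a mean of at least 1 CPM. These values are a description, since the libraries of a stage are of the same kind of cell. For Gfi1 they were Ctla2b, Vav3, Gm49391, Zmynd11 and Vopp1, with r between 0.994 and 0.998, and 6.63% of genes had r over 0.9. Vav3 had means of 1.35, 30.7, 80.1, 119 and 93.5 CPM from ES to HP. For Gfi1b they were Nfe2, Ikzf2, Mpo, Micall2 and Prkcq, with r between 0.994 and 0.998, and 5.34% of genes had r over 0.9. Nfe2, a transcription factor of megakaryocytes and red cells, was at 0.388, 4.59, 6.92, 94.5 and 160 CPM over the 5 stages, and Mpo, the myeloperoxidase gene, at 0.0929, 2.67, 4.16, 105 and 179. For Rcor2 they were Dhdh, Ankrd37, Mif, Eno1b and Atp1b2 (r from 0.981 to 0.990). For Kdm1a they were Smarcd1, Elovl6, Arrdc3, Fbxo17 and Vangl2 (r from 0.980 to 0.986).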

How the data were processed

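Nuclear RNA was measured in 10 libraries, 2 at each of 5 stages. The authors removed ribosomal reads with RiboDetector, trimmed with Trimmomatic, aligned to mm10 with HISAT2 (v2.2.1, per the submitters' processing notes) and deposited raw counts per gene from featureCounts, run on read pairs, with strand, over Ensembl exons and with a pair counted for each gene it overlapped. Reads mapping to several places were not counted, so near-identical copies can lower a gene's value. The authors also deposited a matrix with 1 expression score per stage, a normalised mean on the CPM scale, used here only for the choice of members and for 1 alternative.

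The quasi-likelihood F test of edgeR (v4.0.16, run under R v4.3.3) was fitted to the counts, with TMM scaling, filterByExpr and stage as the only term over all 10 libraries (5 residual degrees of freedom), and Benjamini-Hochberg adjustment over 22596 genes. Calls were made at an adjusted p under 0.05. Fold changes are differences of the log2 values of the fit. The SE given is the absolute log2 change divided by the square root of its F statistic. Log2 ratios used a prior count of 2 and exact permutation tests over the assignments of libraries to stages. Alternatives were limma-voom (limma v3.58.1), DESeq2 (v1.42.0), other library sizes, no filter, a replicate term, fits of 4 libraries, stricter thresholds and leaving out each library. Of each partner list, at most 2 rises and 2 falls per step were named, the largest with adjusted p under 0.05 and no overlap of libraries, and for 4 members the 5 genes most alike. The members and lists were chosen with earlier results of these data known. A few partner genes are counted but not reported by name here. Functions were checked on simulated data. Python (v3.11.15), pandas (v2.3.3), SciPy (v1.17.1) and matplotlib (v3.10.9) were used.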

Additional observations from a re-analysis of the deposited data

How the results depend on the processing

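Of the 7 members, 6 varied among the stages by limma-voom, by DESeq2, with both other library sizes, with no filter, with the replicate term and in the 10 fits without 1 library. The 4, 1, 0 and 6 calls from ES to HB, HE1 to HE2, HE2 to HP and ES to HP stayed within 1.5 times under these settings, the stricter thresholds and the fits of 4 libraries. From HB to HE1 the 4 calls became 2 (Gfi1 and Rcor2) at an adjusted p under 0.01 or with 2-fold required, and 2 to 4 without 1 library. From HE1 to HP the 1 call became 2 with no filter and 1 to 2 without 1 library, Rcor2 being added. Leaving the top 20 genes out of library sizes shifted the median log2 change of all genes from ES to HB by 0.11, and no member's call changed. Of all calls, 44.1% were higher from ES to HB and 46.7% from ES to HP, against 51.4% and 51.5% with these genes left out and 49.5% and 51.0% with total counts. The pairing of equal replicate numbers was checked by the correlation of library differences between stages, which ran from -0.40 to 0.29. It was positive for HB and HE2 (0.29) and for HE1 and HP (0.11). It was negative for HB and HE1 (-0.29), HB and HP (-0.40), HE1 and HE2 (-0.22) and HE2 and HP (-0.39). With ES it lay between -0.038 and 0.0064. Equal numbers thus marked no difference shared by all stages, while links between libraries of unequal numbers were neither tested nor fitted. With the replicate block, which pairs equal numbers, 4, 4, 1, 0, 1 and 6 members passed in the 6 comparisons. Of the 22596 genes tested, 8343, 6233, 1899, 0, 4612 and 10862 passed in the same comparisons. In the successive steps 21, 10, 7 and 0 partner genes passed.

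Without the 2 ES libraries the range of the stage means was 3.29 for Rcor1/Rcor2 (adjusted exact p = 0.114), 0.33 for Hdac1/Hdac2 (adjusted exact p = 0.114) and 2.35 for Gfi1/Kdm1a (adjusted exact p = 0.0794), none past the threshold. From the authors' matrix it was 9.15 for Gfi1/Kdm1a against 7.82, where ES holds few counts. The partner genes called from HE1 to HE2 rose from 7 to 15 with no filter, and without 1 library they ran from 2 to 19, those from ES to HB from 15 to 26 and those from HB to HE1 from 9 to 18. DESeq2 called 4623 of all genes from HE1 to HE2 against 2992, the fit of 4 libraries 544, the replicate block 1899, and no filter 6061. From HE2 to HP, DESeq2 called 465 and no filter 846 against 0.

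Small differences that had not passed changed sign. Without 1 library the log2 values ran from -0.37 to 0.094 for Gfi1 from HE1 to HP, from -0.31 to 0.65 for Gfi1b from HB to HE1, and from -0.12 to 0.12 for Kdm1a from HE1 to HP. For Rcor1 they ran from -0.10 to 0.35 (HB to HE1), -0.041 to 0.39 (HE1 to HE2), -0.032 to 0.40 (HE1 to HP) and -0.047 to 0.065 (HE2 to HP), and with only 4 libraries the last was -0.0027. From HE2 to HP they ran from -0.030 to 0.51 for Rcor2, -0.20 to 0.018 for Hdac1 and -0.31 to 0.058 for Hdac2. Hdac2 from ES to HB ran from -0.12 to 0.14 and was -0.014 by DESeq2, -0.0036 by limma-voom and -0.0012 with the replicate block, and from ES to HP it was 0.024 with the top genes left out of library sizes and 0.012 with total counts. The causes were not tested. In ES, depth limits Gfi1, which rests on 4 counts, and Gfi1b, which rests on 29.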
